A study of Bos taurus with 16 samples.

Results

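The liver and the skeletal muscle of calves born from embryos produced in vitro (IVP) were compared within each calf. The comparison used 8 of the 16 libraries of the series, chosen by their labels: 1 liver and 1 muscle library from each of the 4 IVP calves 3208, 3209, 5833 and 5841, paired by the calf number. All were Holstein bull calves, aged 103 days (98 days in calf 5841). The embryos came from ovum pick-up and in vitro fertilization and culture in a serum-free medium. The study's methods give 1 donor cow for all 4 calves and 2 sires, 1 for calves 3208 and 3209 and 1 for calves 5833 and 5841, so that the calves are close relatives. The liver was sampled in its right lobe and the muscle was the semitendinosus of the left leg, each a piece of whole tissue that holds several cell types. The other 8 libraries are the same organs of 4 Holstein bull calves from embryos of multiple ovulation and embryo transfer (MOET), flushed from superovulated cows. The MOET calves were 102 to 104 days old, and calf 3213 was 144 days old. Their libraries enter only where the difference between the organs is compared between the origins.

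Hepatocytes, the main cells of the liver, release most proteins of the blood plasma, keep up blood glucose between meals, make bile acids and clear nitrogen, drugs and hormones. Skeletal muscle fibres hold actin and myosin filaments in sarcomeres, start contraction by releasing calcium from the sarcoplasmic reticulum, and draw ATP from mitochondria, from creatine phosphate and from glycogen. Fast fibres lean on glycolysis and slow fibres on oxidation, and each type has its own forms of myosin, troponin and calcium pump.

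Each library held between 23161912 and 25626474 counts of polyadenylated RNA assigned to genes. Genes with any count numbered 18086 to 18379 in a liver and 16996 to 17730 in a muscle. The 10 genes with most counts took 18.5% to 23.1% of a liver library and 29.1% to 35.6% of a muscle library. Levels are given as CPM, counts scaled to a common library size by TMM, which corrects for such a difference in composition. Replicate libraries of an organ differed by more than counting noise (chi-square over its degrees of freedom between 20.5 and 155). Against the mean profile of the other 3 calves, the livers gave 43.5 to 214, highest in calf 5841, and the muscles 45.1 to 242, with 190 in calf 3209 and the highest value in calf 5833. Values without a calf are given where they change a statement.

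The labels were checked first. Of the hepatocyte markers, TTR (transthyretin), APOA1 (the main protein of high-density lipoprotein) and CYP7A1 (the rate-limiting enzyme of bile acid synthesis) could be named. CYP7A1 was at 11.9, 26.1, 45.2 and 28.2 CPM in the livers of calves 3208, 3209, 5833 and 5841, the order used for every list of 4 values here, and at 0 in all 4 muscles. TTR was at 4671, 4514, 4644 and 6254 CPM in liver and at 2.95, 41.9, 4.75 and 2.56 CPM in muscle, so that the muscle of calf 3209 held more of it than the other muscles. Of the muscle fibre markers, ACTA1 (the actin of skeletal muscle) was at 113100, 131400, 90040 and 85590 CPM in muscle, and the 4 livers together held 5 counts of it. The summed level of the 4 fibre markers that could be named (ACTA1, MYH2, MYLPF and RYR1) lay between 118700 and 168700 CPM in muscle and between 2.96 and 4.47 CPM in liver. The named markers thus lay with the labelled organ in all 8 libraries.

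Of the 14491 genes tested, 5475 were higher in liver (37.8%) and 4943 were higher in muscle (34.1%) at an FDR under 0.05, by edgeR's quasi-likelihood test with the calf as a block. In either direction 10418 genes (71.9%) were called, and the other 4073 (28.1%) did not pass the test. A test against a 2-fold difference was passed by 3506 genes in favour of liver (24.2%) and by 2722 in favour of muscle (18.8%), 43% of the genes together. By their estimates 1848 of the genes higher in liver and 1157 of those higher in muscle differed over 8-fold, and 763 and 468 over 64-fold. The median log2 fold change of all genes was 0.065 (liver over muscle, the sign used throughout), and the median standard error of a gene was 0.22. With library totals in place of TMM the median was 0.61 and 3207 genes were higher in muscle, so differences under about that size depend on the scaling.

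**Figure D1:**
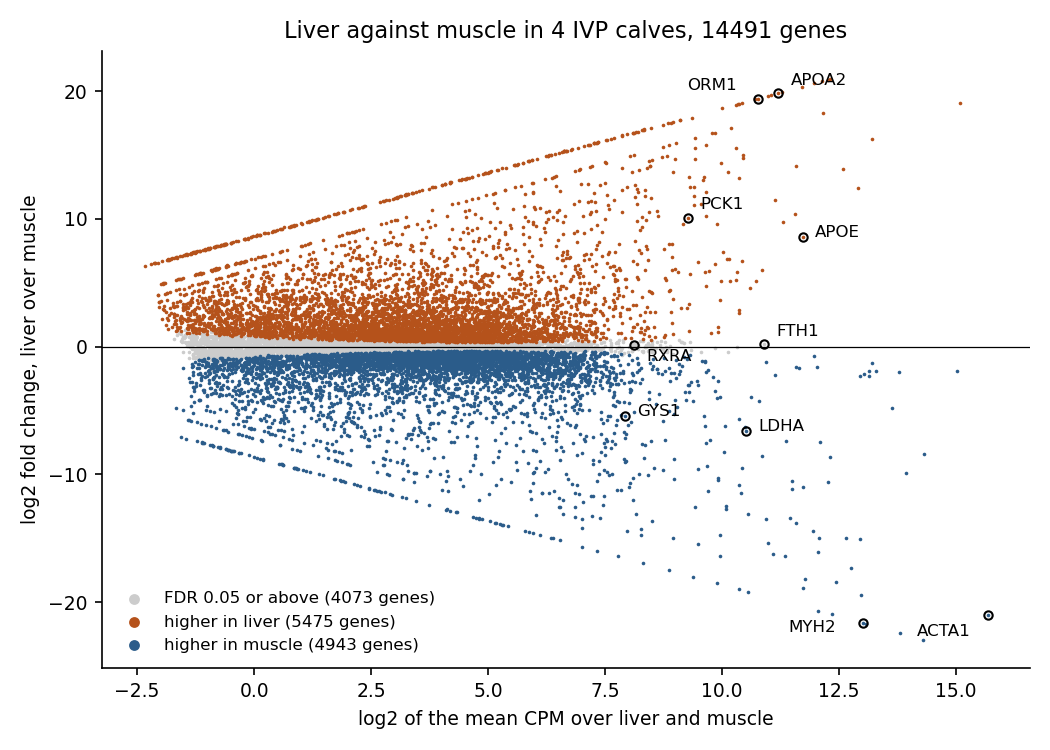
Log2 fold change of liver over muscle against the log2 of the mean CPM for the 14491 genes tested in 4 IVP calves (8 libraries). Orange points are the 5475 genes higher in liver, blue points the 4943 higher in muscle and grey points the 4073 at an FDR of 0.05 or above; the straight outer edges are genes at 0 counts in all 4 libraries of 1 organ, whose estimates depend on the prior count.

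Of all genes tested, 5811 were higher in all 4 livers, 5337 were higher in all 4 muscles and 3343 differed in direction between calves. Among the 10418 genes called, all 4 calves had the same sign in 10198 (97.9%). The calls were made on these same calves and favour genes on which they agree, so that share is no separate evidence. Between any 2 calves the difference over genes had a Pearson's r of 0.952 to 0.98 (a description across genes, which are not independent). In principal component analysis the first component held 95.3% of the variance and separated the organs. Counts were present in all 4 livers and at 0 in all 4 muscles for 570 gene IDs, and the reverse held for 261. For 667 genes (4.6%) the 95% interval of the log2 fold change lay between -0.5 and 0.5.

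Equal levels were measured most precisely for PHRF1, MCM3AP, VIRMA, WDR33 and GRB2. VIRMA, a subunit of the enzyme complex that methylates adenosine in mRNA, was at 24.1, 25.4, 25.5 and 28.2 CPM in liver and at 25.4, 28.0, 28.3 and 28.0 CPM in muscle (log2 fold change -0.09 ± 0.13, SE). The livers and muscles overlapped. GRB2, the adaptor between receptor tyrosine kinases and RAS, had a log2 fold change of 0.18 ± 0.13 and MCM3AP, a scaffold of mRNA export, 0.06 ± 0.13. These rest on TMM scaling: with library totals in its place, all 5 were called higher in liver, MCM3AP by 0.60 and VIRMA, whose sign turned, by 0.45.

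Genes could be named for 3699 of those tested (25.5%), through the supplementary tables of the study, which were drawn up on the difference between IVP and MOET calves. Among the named genes 38.8% were higher in liver and 31.7% in muscle, near the shares of all genes. Over 2-fold these shares were 23.8% and 16%. The counts called in each list below are to be read beside these shares. Several genes with the most counts carry an Ensembl ID only. ENSBTAG00000017121 was at 70360, 70890, 82120 and 57710 CPM in liver and at 0, 0, 0.26 and 0.22 CPM in muscle. ENSBTAG00000018204 was at 44950, 65120, 20740 and 31240 CPM in muscle and at 0 in all livers, at least 386000-fold higher in muscle against a floor of 3 counts per library. ENSBTAG00000043561 was among the 5 genes with most counts in both organs, with 10640 to 15930 CPM in liver and 38780 to 62290 CPM in muscle (log2 fold change -1.88 ± 0.39, FDR = 0.00162, edgeR).

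**Figure D2:**
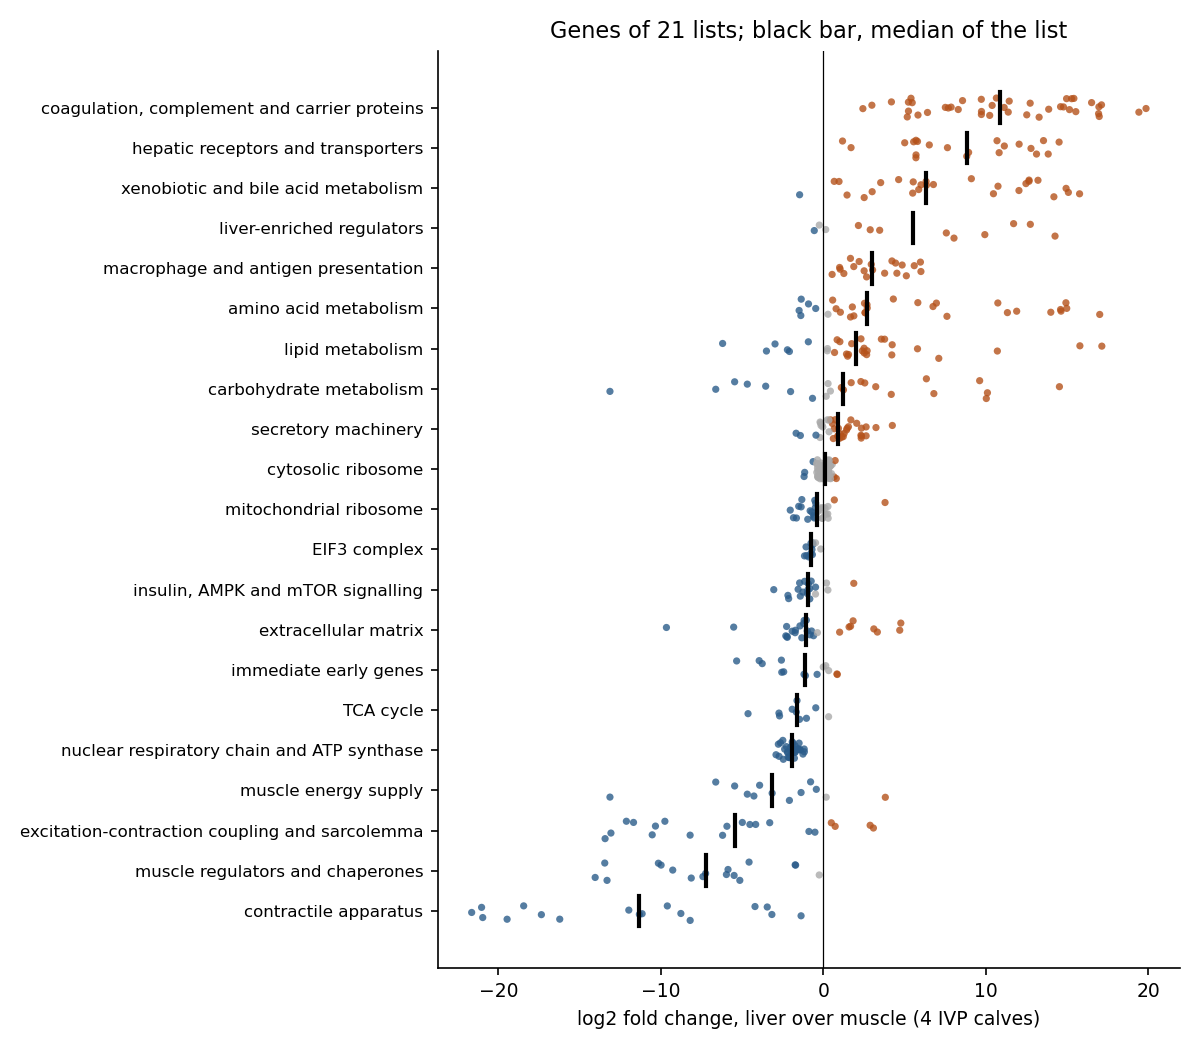
Log2 fold change of liver over muscle (x axis) for the genes of 21 lists in 4 IVP calves, 1 point per gene, orange where called higher in liver, blue where called higher in muscle and grey where not called. The black bar is the median of each list, from 10.9 in the proteins of coagulation, complement and carriage to -11.3 in the contractile apparatus, with the cytosolic ribosome next to 0.

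The proteins that the liver releases into blood were higher in liver. All 42 named genes of coagulation, complement and carriage passed the test in this direction, also at 2-fold, with a median log2 fold change of 10.9 (10.2 with the genes at 0 in muscle set to their bound). APOA2, a protein of high-density lipoprotein, was at 3912, 4232, 3931 and 6765 CPM in liver and at 0 in every muscle, at least 32800-fold higher in liver. ORM1, an acute phase protein that binds drugs, was at 2594, 3783, 3168 and 4472 CPM in liver and likewise at 0 in muscle, at least 24400-fold higher. APOB, which carries very low-density lipoprotein, was at 495.0 to 739.8 CPM in liver and at 0 in muscle.

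Some carriers were also counted in muscle, and those named here were chosen after their values were seen. APOE, which directs lipoproteins to their receptors, was at 4700, 6179, 5359 and 10830 CPM in liver and at 15.4, 19.7, 20.3 and 13.1 CPM in muscle (log2 fold change 8.56 ± 0.44, FDR = 1.24e-07, edgeR). RBP4, the carrier of retinol, was at 4970 to 7450 CPM in liver and at 3.75 to 4.85 CPM in muscle. The smallest differences of the group were those of C7, a part of the complement pore, with a log2 fold change of 2.42 ± 0.20, and of TCN2, the carrier of vitamin B12, with 2.98 ± 0.20. C7 was at 46.8 to 67.5 CPM in liver and 7.75 to 13.3 CPM in muscle, with no overlap.

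The receptors and transporters of the hepatocyte surface were also higher in liver, with 21 of 21 tested genes higher in liver (20 of them at 2-fold) and a median of 8.82 (7.63 with bounds). Among them were SLC17A3 and SLC22A7, carriers of organic anions, and SLCO1A2, which takes up bile salts. SLC17A3 and SLCO1A2 were at 0 in every muscle, so that their fitted differences depend on the prior count. SLC22A7 was at 236.5, 261.0, 213.4 and 279.8 CPM in liver, and the muscles held 1 count in all. AQP8, a water channel, was at 304.5 to 390.6 CPM in liver and at 0.05, 0, 14.1 and 0 CPM in muscle. It was named after its values were seen because 1 muscle, that of calf 5833, held nearly all of its muscle counts.

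Enzymes of drug and bile acid metabolism were higher in liver in 26 of 27 genes tested, with a median of 6.34 (6.32 with bounds). GLYAT, which conjugates glycine to acids such as benzoate, was at 729.7, 945.1, 760.1 and 1322 CPM in liver against 1 count over the 4 muscles. FMO1, a flavin monooxygenase, was at 444.0 to 591.7 CPM against 1 count. CYP2C18 and AADAC were at 0 in all muscles and at least 1210-fold and 653-fold higher in liver. The exception was MGST3, a microsomal glutathione transferase, at 29.4, 32.8, 36.1 and 44.5 CPM in liver and 90.3, 103.6, 106.8 and 90.4 CPM in muscle (log2 fold change -1.47 ± 0.16, FDR = 2.44e-05, edgeR).

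Amino acid metabolism was higher in liver in 25 of 31 genes, higher in muscle in 5 and not called in 1 (median 2.68). FTCD, of histidine breakdown, and HAO2 and URAD, of hydroxy acid and urate breakdown, were at 0 in all muscles and at least 4530-, 1130- and 1080-fold higher in liver. SLC25A15, the ornithine carrier of the urea cycle, was at 16.3, 9.45, 12.7 and 5.13 CPM in liver and 1.40 to 2.43 CPM in muscle (log2 fold change 2.56 ± 0.36). Among those higher in muscle were GOT2, the mitochondrial aspartate aminotransferase, with 262.7 to 357.4 CPM in liver and 765.7 to 930.9 CPM in muscle (log2 fold change -1.50 ± 0.18), and CARNS1, which makes carnosine (log2 fold change -1.39 ± 0.35). CARNS1 in the muscle of calf 5833 (18.8 CPM) lay below the level in the liver of calf 3208 (19.4 CPM) and below the 40.2 to 45.2 CPM of the other muscles.

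Carbohydrate metabolism was divided between the organs, with 13 of 23 genes higher in liver, 7 higher in muscle and 3 not called (median 1.23). Of all genes tested, 37.8% were higher in liver and 34.1% in muscle. All 3 named genes of gluconeogenesis and its hormone receptor were higher in liver. PCK1, which commits carbon to gluconeogenesis, was at 1227, 1242, 1437 and 1025 CPM in liver and at 1.201, 1.73, 0.88 and 0.81 CPM in muscle (log2 fold change 10.09 ± 0.33, FDR = 7.84e-09, edgeR). FBP1, a later step of the same path, had a log2 fold change of 10.02 ± 0.37, and GCGR, the glucagon receptor, 7.63 ± 0.28.

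The forms of glycogen synthase ran in opposite directions. GYS2, the liver form, was at 116.2, 98.9, 167.1 and 86.9 CPM in liver and at 0 in all 4 muscles, at least 818-fold higher in liver. GYS1, the muscle form, was at 11.7, 9.83, 9.96 and 10.9 CPM in liver and at 500.7, 585.4, 348.5 and 467.8 CPM in muscle (log2 fold change -5.47 ± 0.22, FDR = 2.44e-08, edgeR). Of glycolysis, PGAM2, the muscle phosphoglycerate mutase, had a log2 fold change of -13.1 ± 0.37, and LDHA, which makes lactate, -6.63 ± 0.41, both higher in muscle. LDHA was at 24.5, 24.3, 42.5 and 26.2 CPM in liver and at 3417, 3473, 1768 and 2931 CPM in muscle. In calf 5833 it was thus the highest of the livers and the lowest of the muscles. ENO1, the form of enolase found in most tissues, was higher in liver by 1.23 ± 0.21, and HK1, a hexokinase of most tissues, did not pass the test (0.17 ± 0.16, FDR = 0.355, edgeR).

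**Figure D3:**
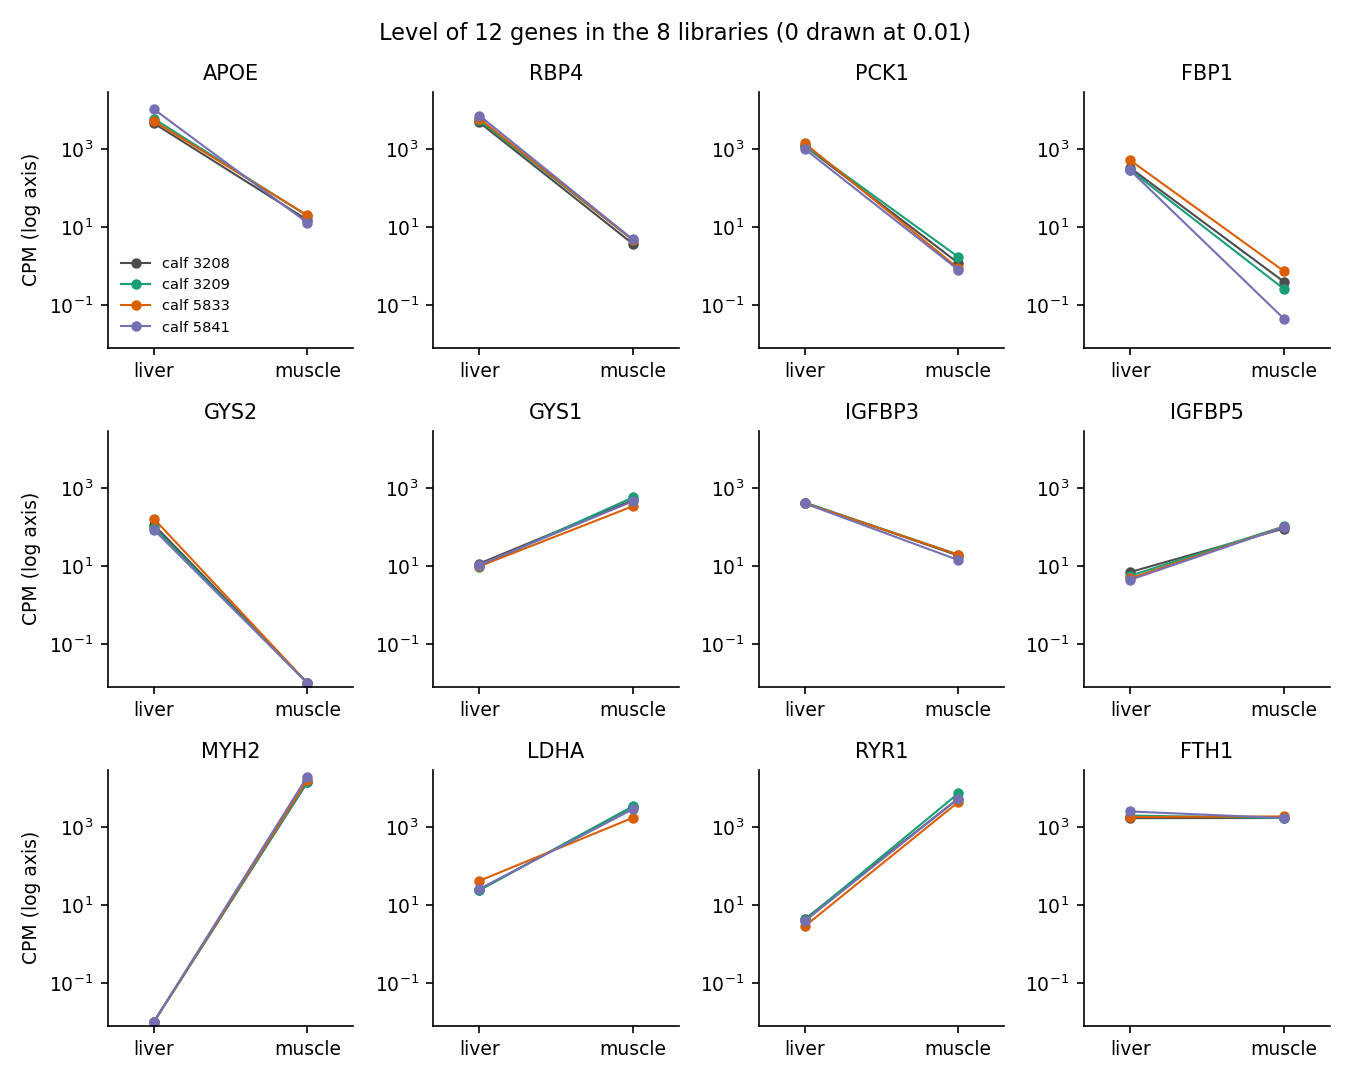
CPM on a log axis in the 8 libraries for 12 genes, with a line joining the liver and the muscle of each IVP calf and 0 drawn at 0.01. GYS2 lies at 0 in muscle, where GYS1 lies between 348.5 and 585.4 CPM, and the libraries of both organs overlap in FTH1 only.

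Lipid metabolism was higher in liver in 22 of 30 genes and in muscle in 6 (median 2.02). FABP1, the fatty acid binding protein of liver, was at 1694, 1412, 833.6 and 2526 CPM in liver against 2 counts over the muscles. LIPC, the hepatic lipase, was at 174.6, 176.8, 214.9 and 171 CPM in liver and at most 0.18 CPM in muscle (log2 fold change 10.7 ± 0.29). With so few muscle counts, its estimate and error lie near the floor. Of fatty acid oxidation, ECHS1 and ACAA2 were higher in liver by 2.69 ± 0.19 and 2.50 ± 0.17. ACADM, the medium-chain acyl-CoA dehydrogenase, differed less, with 91.3 to 159.9 CPM in liver and 52.4 to 90.5 CPM in muscle (0.68 ± 0.17, FDR = 0.00455, edgeR).

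Among the 6 genes higher in muscle were CD36 and PLIN4. CD36, which takes up long-chain fatty acids, was at 14.7, 15.3, 19.9 and 12.7 CPM in liver and 170.4, 176.6, 191.1 and 166.4 CPM in muscle (log2 fold change -3.51 ± 0.17). PLIN4, a droplet protein that also marks adipocytes, had a log2 fold change of -6.21 ± 0.33, with 39.1 to 59.5 CPM in muscle. No other marker of adipocytes could be named, so the part of fat cells in the muscle piece was not tested. ACSS2, the cytosolic acetyl-CoA synthetase, was at 178.2, 179.6, 33.1 and 192.3 CPM in liver and 40.3 to 46.5 CPM in muscle. It was called higher in liver (1.54 ± 0.42, FDR = 0.00837, edgeR) with the liver of calf 5833 below its muscle.

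Regulators enriched in liver were higher there in 9 of 12 genes, lower in 1 and not called in 2, with a median of 5.51 (4.29 with bounds). FOXA2, a pioneer factor of hepatocytes, was at 28.6, 33.0, 34.8 and 40.0 CPM in liver and at 0 in muscle, at least 238-fold higher. CREB3L3, which drives lipid and fasting genes from the endoplasmic reticulum, and A1CF, a partner of APOB mRNA editing, were likewise at 0 in muscle and at least 682- and 117-fold higher in liver. NR1I3, a xenobiotic receptor, had a log2 fold change of 8.03 ± 0.23. It was at 0.21 to 0.45 CPM in muscle (scaled over all 16 libraries), so this error can be too small. A pair of lipid-sensing receptors did not pass the test: PPARA was at 10.5 to 18.0 CPM in liver and 13.7 to 19.7 CPM in muscle (-0.26 ± 0.20, FDR = 0.28, edgeR), and RXRA, named after its values were seen, at 262.8 to 334.6 and 223.9 to 294.8 CPM (0.14 ± 0.19, FDR = 0.519).

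Growth hormone and insulin-like growth factor genes differed in direction within the axis, with 5 of 7 named genes higher in liver and 2 in muscle. IGFALS and IGFBP3, which hold the factors in blood, were higher in liver by 7.5 ± 0.21 and 4.55 ± 0.19, and IGFBP4, another binding protein, by 5.70 ± 0.27. IGFBP3 was at 433.5, 432.3, 417.6 and 412.2 CPM in liver and 18.8, 19.9, 19.8 and 14.4 CPM in muscle. IGFBP5, the binding protein of muscle and bone, was at 7.09, 5.69, 4.89 and 4.48 CPM in liver and at 93.0, 105.1, 101.6 and 101.0 CPM in muscle (log2 fold change -4.19 ± 0.19, FDR = 4.63e-08, edgeR). The receptor IGF1R was higher in muscle as well (-2.19 ± 0.23). GHR, the growth hormone receptor, named after its values were seen, was at 290.3, 190.4, 266.8 and 89.8 CPM in liver and 83.0, 108.2, 71.4 and 81.1 CPM in muscle (1.17 ± 0.29, FDR = 0.00485, edgeR). The liver of calf 5841 overlapped the muscles in GHR.

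Of 17 named secreted signals and binding proteins, 13 were higher in liver and 4 in muscle (median 4.55, 3.46 with bounds). FGF21, the fasting hormone of liver, was at 3.42, 7.83, 2.18 and 24.3 CPM in liver and at 0 in all muscles, at least 65.7-fold higher, and the liver of calf 5841 held most of it. ANGPT1, which steadies vessel walls, was higher in muscle (-2.46 ± 0.21). Among 13 hormone receptors tested, 7 were higher in liver and 3 in muscle, where 37.8% and 34.1% of all genes tested were. AVPR1A, the vasopressin receptor of liver, had a log2 fold change of 5.00 ± 0.20 and PTH1R, the parathyroid hormone receptor, 3.83 ± 0.21, while ADIPOR1, an adiponectin receptor, was higher in muscle (-2.11 ± 0.15). INSR, the insulin receptor, was at 10.3 to 15.8 CPM in liver and 7.95 to 16.1 CPM in muscle and did not pass the test (0.27 ± 0.22, FDR = 0.292, edgeR).

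Downstream of these receptors, 15 of 19 genes of insulin, AMPK and mTOR signalling were higher in muscle, 1 was higher in liver and 3 were not called (median -0.96). PRKAB2, a scaffold subunit of AMPK, was at 3.10, 1.79, 2.39 and 0.95 CPM in liver and 17.1, 20.1, 11.7 and 17.9 CPM in muscle (log2 fold change -3.06 ± 0.31). PDPK1, the kinase that activates AKT, had a log2 fold change of -2.14 ± 0.21.

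The secretory machinery, which folds and ships exported proteins, was higher in liver in 26 of 38 genes, higher in muscle in 3 and not called in 9 (median 0.91). FKBP11 and PPIB, folding enzymes of the endoplasmic reticulum, were higher by 4.24 ± 0.23 and 3.23 ± 0.25. SEC61A1, the channel through which new chains enter it, was at 192.1, 224.2, 198.0 and 250.3 CPM in liver and 30.6, 35.4, 38.9 and 35.1 CPM in muscle (2.62 ± 0.17). Its paralogue SEC61A2 ran the other way, with 6.19 to 11.01 CPM in liver and 26.5 to 32.2 CPM in muscle (-1.68 ± 0.16). SAR1B, a coat protein of vesicles, was also higher in muscle (-1.42 ± 0.20).

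Iron genes were divided too. TFR2, the iron sensor of hepatocytes, was higher in liver by 10.8 ± 0.39 and SLC40A1, the iron exporter, by 2.28 ± 0.20. TFR2 was at 0.21, 0, 0.045 and 0.046 CPM in muscle (scaled over all 16 libraries), so its estimate and error lie near the floor. The 2 ferritin chains differed: FTL was at 2393, 3074, 2413 and 5254 CPM in liver and 104.4, 91.5, 92.9 and 75.0 CPM in muscle (5.10 ± 0.35, FDR = 8.19e-07, edgeR), and FTH1 was at 1739, 2021, 1856 and 2575 CPM in liver and 1751, 1746, 1921 and 1742 CPM in muscle (0.18 ± 0.23, FDR = 0.505). TFRC, which takes up transferrin, was higher in muscle (log2 fold change -1.82 ± 0.39), with 4.67 to 20.2 CPM in liver and 21.3 to 60.4 CPM in muscle.

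In muscle, all 17 named genes of the contractile apparatus were higher than in liver (16 of them at 2-fold), with a median log2 fold change of -11.3. MYH2, the myosin of fast oxidative fibres, was at 14380, 15020, 16930 and 20300 CPM in muscle and at 0 in every liver, at least 159000-fold higher. MYH7, the myosin of slow fibres, was at 6952, 6134, 17800 and 11140 CPM and also at 0 in liver, at least 100000-fold higher. TNNC2 and TNNT3, troponins of fast fibres, were at 10650 to 21170 and 10170 to 18340 CPM in muscle, with 2 and 9 counts over the 4 livers. Myosin and actin genes have near-identical copies, so reads could have been shared among them. The smallest difference was that of TNNI3, named after its values were seen, the troponin I of heart, at 1.46 to 2.49 CPM in liver and 2.72 to 6.91 CPM in muscle (-1.38 ± 0.30).

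The machinery that couples excitation to contraction was higher in muscle in 16 of 20 genes and in liver in 4 (median -5.47). RYR1, the calcium release channel, was at 5535, 7490, 4485 and 5543 CPM in muscle and 2.89 to 4.37 CPM in liver (log2 fold change -10.5 ± 0.36, FDR = 9.68e-09, edgeR). SCN4A, the sodium channel of muscle, had a log2 fold change of -12.1 ± 0.48, and ANO5, an anoctamin linked to membrane repair, was at 0 in liver and at least 531-fold higher in muscle. SCN4A was at 0, 0, 0.14 and 0.078 CPM in liver (scaled over all 16 libraries), so its estimate and error lie near the floor. The dystrobrevins ran in opposite directions: DTNA was at 0.46 to 0.99 CPM in liver and 177.1 to 220.5 CPM in muscle, and DTNB was at 46.3, 40.2, 32.5 and 44.0 CPM in liver and 4.00, 4.86, 5.19 and 5.17 CPM in muscle (3.07 ± 0.18). DTNA was named after its values were seen. SRI, a calcium sensor of many tissues, was also higher in liver (2.87 ± 0.17).

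Of muscle regulators and chaperones, 16 of 17 tested were higher in muscle (median -7.25). SMYD1, a methyltransferase needed for sarcomere assembly, was at 62.6, 50.4, 41.0 and 50.4 CPM in muscle and at 0 in liver, at least 486-fold higher. ABRA, an actin-binding protein of striated muscle, was at least 816-fold higher, and MEF2C, a factor of muscle differentiation, differed by -5.50 ± 0.25. PPARGC1A, the coactivator of mitochondrial genes, was at 15.2, 14.1, 18.7 and 27.1 CPM in liver and 16.4, 18.1, 22.5 and 33.6 CPM in muscle, lower in the liver of each calf, and did not pass the test (-0.26 ± 0.14, FDR = 0.109, edgeR).

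The listed nuclear genes of the respiratory chain, and most of those of the TCA cycle, were higher in muscle. Of 13 mitochondrially encoded genes, 0 could be named. All 33 named genes of a list of nuclear subunits of the respiratory chain and ATP synthase, which did not hold every subunit, passed the test in this direction (30 at 2-fold), at a median log2 fold change of -1.95 and with a range from -2.92 to -1.18. NDUFS7, a subunit of complex I, was at 39.7, 46.4, 46.6 and 77.5 CPM in liver and 374.5, 330.5, 406.8 and 435.0 CPM in muscle. Of the TCA cycle, 9 of 10 genes were higher in muscle (median -1.65). IDH3A, a catalytic subunit of isocitrate dehydrogenase, was at 5.84, 5.83, 6.10 and 6.46 CPM in liver and 187.3, 138.3, 114.1 and 176.6 CPM in muscle (-4.64 ± 0.19, FDR = 2.97e-08, edgeR). SUCLG2, the GTP-forming subunit of succinyl-CoA ligase, was the gene not called, at 193.7 to 260.7 CPM in liver and 163.2 to 197.7 CPM in muscle (0.31 ± 0.16, FDR = 0.105). COX6A1, a nuclear subunit of cytochrome oxidase that was not in the list of 33, is the form found outside heart and muscle, and it was higher in liver by 2.11 ± 0.18. Of energy supply in muscle, 11 of 13 genes were higher there, and CKB, the brain form of creatine kinase, was higher in liver (3.81 ± 0.27).

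The machinery of protein synthesis varied between calves, and in the cytosolic ribosome most genes did not pass the test. The cytosolic ribosome was represented by 59 named genes, of which 53 were not called, 3 were higher in liver and 3 in muscle (median log2 fold change 0.12). RPLP1, of the ribosomal stalk, was at 868.7, 1065, 1162 and 1828 CPM in liver and 3212, 3040, 2419 and 2254 CPM in muscle (-1.19 ± 0.30, FDR = 0.00517, edgeR). RPL14 was at 328.8, 396.2, 447.5 and 793.5 CPM in liver and 309.4, 220.4, 291.5 and 260.1 CPM in muscle (0.79 ± 0.25, FDR = 0.0174). In both, the liver of calf 5841 was the highest and that of calf 3208 the lowest.

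Over the list, the median difference of the ribosomal genes was -0.54, -0.01, 0.01 and 0.94 on the log2 scale in the 4 calves. More of them were higher in liver in calf 5841 (56 of 59) than in calf 3208 (1 of 59). Without calf 5841 the median was -0.17, with 17 genes higher in muscle and 1 in liver, and without calf 3208, 3209 or 5833 there were 2 higher in muscle and 8, 0 or 1 in liver. The core proteasome (4 of 8 genes higher in muscle, 1 in liver) and the mitochondrial ribosome (15 of 31 higher in muscle, 2 in liver) had the same order at its ends: their medians were highest in calf 5841, at 0.48 and 0.07, and lowest in calf 3208, at -0.51 and -0.77. Without calf 3208, 3209 or 5833, only 1 proteasome gene (PSMB5) was called higher in muscle. The EIF3 complex, which brings mRNA to the small ribosomal subunit, was higher in muscle in 10 of 12 genes (median -0.74), and its median was -0.23 in calf 5841 and -1.16 in calf 3208. The respiratory chain had its smallest difference in calf 5841 (-1.41) and its largest in calf 3208 (-2.31). What sets these livers apart was not tested.

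**Figure D4:**
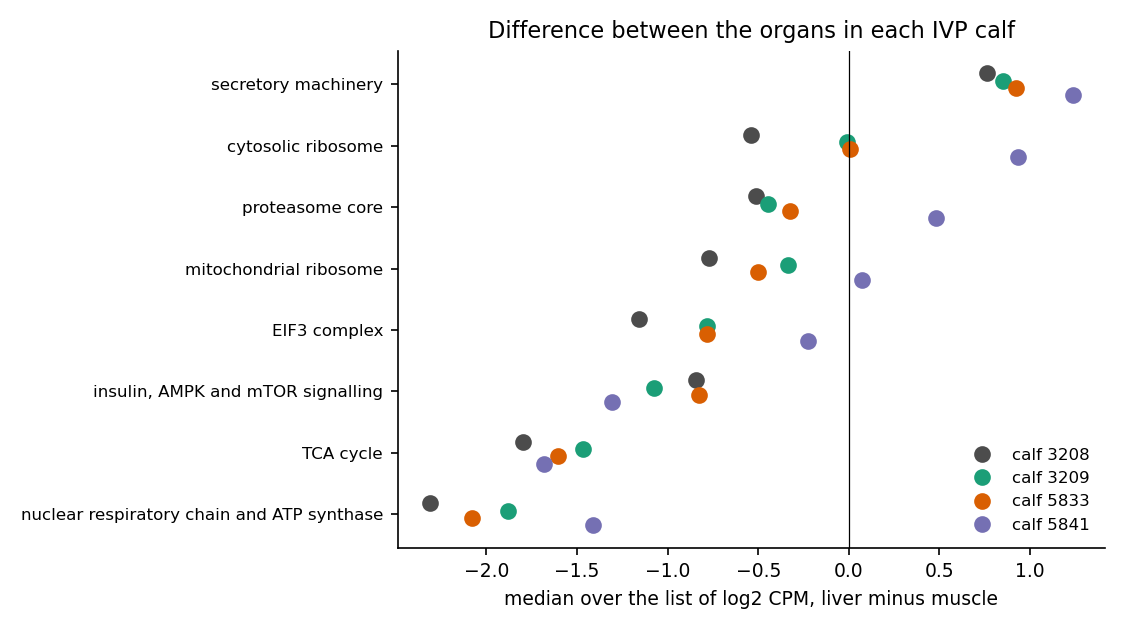
Median over each of 8 lists of the difference in log2 CPM, liver minus muscle, with 1 point for each of the 4 IVP calves. In the cytosolic ribosome, proteasome core, mitochondrial ribosome, EIF3 complex and respiratory chain, calf 5841 lies farthest to the liver side (0.94 in the cytosolic ribosome) and calf 3208 farthest to the muscle side (-0.54), whereas the secretory machinery is above 0 in all 4.

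Of the mitochondrial ribosome MRPL23 was higher in liver, at 290.6, 378.2, 229.5 and 717.9 CPM in liver and 30.4, 26.6, 23.6 and 25.6 CPM in muscle (log2 fold change 3.79 ± 0.29, FDR = 1.76e-06, edgeR). The next of the list toward liver was MRPL19 with 0.67 ± 0.14. The libraries were unstranded, and whether a gene on the other strand overlaps MRPL23 was not tested.

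Fibre type genes differed between the muscles of the calves. MYH7 and ATP2A2, the slow fibre calcium pump, were higher in the muscles of calves 5833 and 5841 than in those of calves 3208 and 3209: ATP2A2 was at 1156, 1259, 3227 and 2851 CPM. The fast fibre genes TNNT3, TNNC2, MYLPF and MYOZ1 had the opposite order, highest in calf 3209 and lowest in calf 5833. MYLPF, the fast regulatory light chain, was at 13140, 14780, 7252 and 9550 CPM. MYH2 did not follow them. CASQ2, the slow and cardiac calsequestrin, was at 29.1, 9.15, 50.01 and 20.1 CPM and was split differently. The summed level of the 3 slow fibre genes was 8138, 7402, 21080 and 14010 CPM, and that of the 5 fast fibre genes 67780, 76420, 49270 and 61180 CPM. The pairs of calves are those of the sires, and with 2 calves each, no test was made. In a piece of whole tissue, more fibres of a type and more RNA per fibre cannot be told apart, and the same holds for every cell type below.

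**Figure D5:**
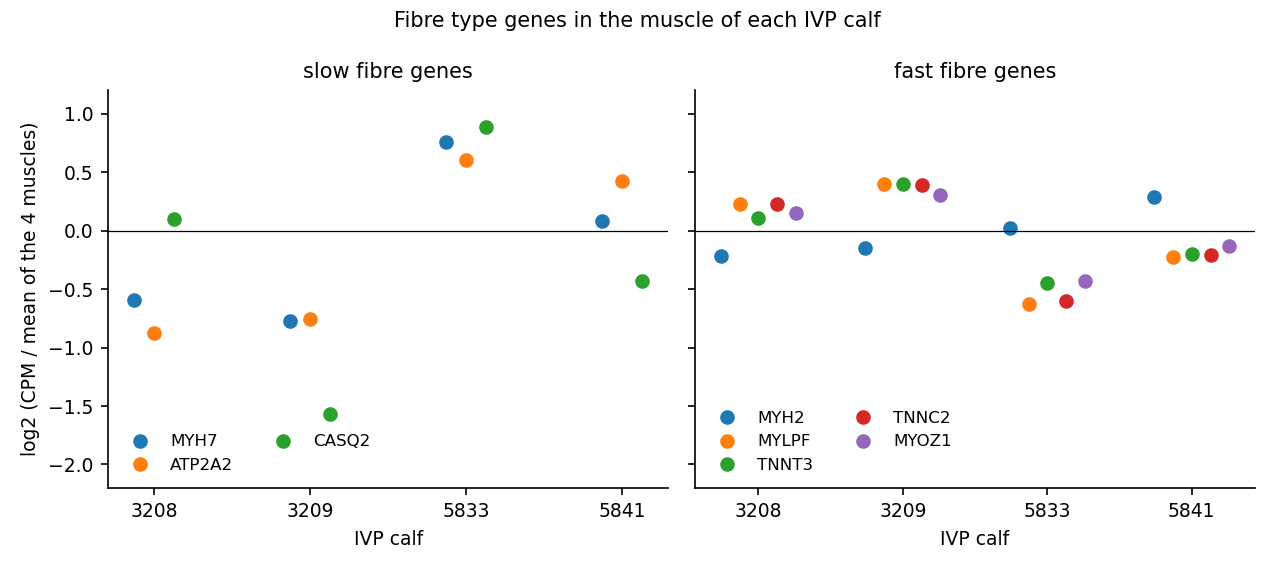
Level of the slow (left, 3 genes) and fast (right, 5 genes) fibre genes that could be named in the muscle of each IVP calf, as log2 of the CPM over the mean of the 4 muscles. MYH7 and ATP2A2 lie below 0 in calves 3208 and 3209 and above it in calves 5833 and 5841, and the fast genes other than MYH2 lie the other way.

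Markers of other cell types were unequal between the organs. All 4 macrophage markers that could be named were higher in liver, where resident macrophages line the sinusoids: C1QB, a chain of complement C1q, was at 467.1, 662.8, 585.9 and 854.7 CPM in liver and 7.75, 8.21, 21.8 and 7.23 CPM in muscle (5.97 ± 0.38, FDR = 4.54e-07, edgeR). The summed level of the 4 markers (CSF1R, C1QA, C1QB and C1QC) was 1217 to 2097 CPM in liver, and in muscle 67.0 CPM in calf 5833 and 24.0 to 28.6 CPM in the others. Of the wider group of macrophage and antigen presentation genes, 20 of 20 were higher in liver (median 2.98). Of 11 lymphocyte genes tested, 10 were higher in liver, such as CD22, of B cells (6.05 ± 0.30), and KLRB1, of natural killer cells (4.198 ± 0.64).

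Endothelial genes differed in both directions. CDH5, the cadherin of all endothelium, was at 58.2, 59.2, 56.6 and 38.6 CPM in liver and 48.3, 42.6, 70.3 and 48.1 CPM in muscle (0.03 ± 0.18, FDR = 0.893, edgeR). CD34 and VWF, of continuous endothelium, were higher in muscle (-4.32 ± 0.17 and -2.12 ± 0.21). CLEC4G and CLEC1B, of the liver sinusoid, were higher in liver (10.02 ± 0.47 and 10.15 ± 0.41), as were PLVAP, of fenestrated vessels (2.76 ± 0.18), and EDNRB, an endothelin receptor (2.71 ± 0.23). CLEC1B was at 0, 0, 0.045 and 0 CPM in muscle (scaled over all 16 libraries), so its estimate and error lie near the floor. In all, 4 of 16 endothelial genes were higher in liver, 7 in muscle and 5 were not called, so that 11 of 16 were called where 71.9% of all genes were.

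The extracellular matrix was higher in muscle in 18 of 27 genes and in liver in 8 (median -1.05). COL1A1, the main fibrillar collagen, was at 71.3, 71.8, 46.2 and 63.5 CPM in liver and 245.9, 402.9, 299.3 and 272.5 CPM in muscle (-2.27 ± 0.20). THBS4, of muscle and tendon matrix, had the largest difference (-9.66 ± 0.53). FN1, fibronectin, which hepatocytes also release into plasma, was at 1178 to 1842 CPM in liver and 46.7 to 66.9 CPM in muscle (4.76 ± 0.24), and TNC, tenascin, was higher in liver by 4.69 ± 0.21. Of the bile duct markers, CFTR and SPP1 were higher in liver, by 7.02 ± 0.62 and 1.56 ± 0.59, both at low levels (at most 2.75 CPM). CFTR was at 0, 0, 0 and 0.046 CPM in muscle (scaled over all 16 libraries), so its estimate and error lie near the floor. SPP1 did not pass the test without calf 3208 or without calf 5833 (FDR = 0.0531 and 0.0935, edgeR).

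Immediate early genes, which answer stimuli within minutes, were higher in muscle in 9 of 14, higher in liver in 2 and not called in 3 (median -1.15). NR4A1, a nuclear receptor induced by activity, was at 12, 7.001, 19.0 and 8.17 CPM in liver and 394.6, 503.8, 299.7 and 595.4 CPM in muscle (-5.34 ± 0.41, FDR = 1.73e-06, edgeR). ATF3, of the stress response, was at 7.97 to 10.02 CPM in liver and 77.5, 92.3, 133.2 and 223.8 CPM in muscle (-3.77 ± 0.28). The members higher in liver were IER2 and JUNB, by 0.85 ± 0.17 and 0.83 ± 0.17. Of the clock genes 3 of 7 were higher in muscle, where 34.1% of all genes tested were. The largest difference was that of BHLHE41, a repressor of the clock (-2.44 ± 0.17). ARNTL and PER2 did not pass the test (FDR = 0.368 and 0.802, edgeR).

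The difference between the organs was then compared between the 4 IVP and the 4 MOET calves, in 1 fit over all 16 libraries. It differed at an FDR under 0.05 in 3491 of 15237 genes (22.9%), 1795 with a difference more toward liver in IVP calves and 1696 more toward muscle (edgeR's quasi-likelihood test with the calf as a block). This count changed when single calves were left out, with a term for age and when only calves of shared parents were used. The MOET calves were aged 102 to 104 days, and 144 days in calf 3213. Only calf 3213 was far from the others in age, so age and this calf cannot be told apart. A term for age and a fit without calf 3213 are therefore not separate checks. Both libraries of calf 3213 lay close to the mean profile of the other 3 MOET calves, with a chi-square over its degrees of freedom of 1.6 in liver and 0.906 in muscle against 19.7 to 47.5 for the other MOET libraries. These 2 libraries thus differed from that mean by about the counting noise, so calf 3213 may not be a replicate independent of the other MOET calves, and counts without it are given beside those with it. Without calf 3213 there were 1151 genes (7.49%), 1144 of the genes in both fits (7.51%) were called with and without it, without MOET calf 3217 there were 1019, and with a term for age by organ, an alternative added after the data were seen, 713 (4.68%). By the study's methods, MOET calves 3217 and 3218 share the donor and the sire of IVP calves 3208 and 3209, and the other 2 MOET calves had another donor and 2 other sires. Parentage was not a term of the fit over 16 libraries. Between these 4 calves of the same parents alone, an alternative also added after the data were seen, 273 of 15302 genes differed (1.78%), with 3275 at an unadjusted p under 0.05. Of the genes called over 16 libraries, 3485 were tested there, of which 3485 had the same sign and 248 were called. The same calves entered both fits. With 2 calves of each origin, parentage and the smaller number of calves cannot be told apart. The named genes were drawn from tables of genes that differed between the origins, and 45.5% of them were called against 15.5% of the others, so the shares called in named lists are not set against 22.9%.

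All 59 genes of the cytosolic ribosome were called, each with a difference more toward liver in IVP calves, but 11 were without calf 3213 and 0 with age by organ. Among the 4 calves of the same parents alone, no ribosomal gene was called (lowest FDR = 0.0542, in RPL38, edgeR). The median difference of the list was -0.56 to 0.94 in IVP calves and -1.16 to -0.94 in MOET calves, without overlap. Respiratory chain genes gave 13 of 33 called, 0 without calf 3213. The contractile apparatus gave 4 of 17 and 0, and the proteins of coagulation, complement and carriage 8 of 42 and 4.

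Some genes were called with all 8 calves, without calf 3213 and with age by organ, where the last 2 are not separate checks. Of the 6 given here, FGF21 was not called among the 4 calves of the same parents (FDR = 0.121, edgeR), and the other 5 were. ATF3 was at 12.9 to 28.1 CPM in the muscle of MOET calves and 80.3 to 228.8 CPM in that of IVP calves on the scale of the 16 libraries, with 6.92 to 10.8 CPM in every liver, so its organ difference was more toward muscle in IVP calves (difference of -2.77 ± 0.31 on the log2 scale, FDR = 0.00421, 0.0205 without calf 3213 and 0.0199 with age by organ, edgeR). TFRC was higher in muscle in the IVP calves and higher in liver in the MOET calves: the differences of single calves were -3.66 to -0.96 and 0.74 to 1.36 (difference -2.85 ± 0.47, FDR = 0.00831). EDNRB was at 9.37 to 25.1 CPM in IVP livers and 33.2 to 44.4 CPM in MOET livers (difference -1.62 ± 0.25, FDR = 0.0071). MRPL23 was at 231.6 to 737.8 CPM in IVP livers and 138.1 to 185.0 CPM in MOET livers (difference 1.74 ± 0.31, FDR = 0.01). FGF21 was at 2.20 to 24.9 CPM in IVP livers and 0.65 to 1.28 CPM in MOET livers, and at 0 to 0.14 CPM in the muscles (FDR = 0.0119), so that its fitted difference depends on the prior count. PDPK1 was called as well, with a difference of -1.72 ± 0.26.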

How the data were processed

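RNA sequencing of liver and semitendinosus muscle was analysed in the 4 IVP calves (8 libraries), with the 8 MOET libraries added only for the comparison between origins. Per the labels and the study's methods, the authors prepared unstranded polyA libraries, aligned paired reads to bosTau9 with STAR 2.7 and counted them per Ensembl gene with HTSeq. The deposited table holds estimated counts for 27607 gene IDs; the methods name sva for the effect of age, and whether the deposited values carry such a correction is not given in the sources used here. They were treated as estimated counts and rounded to whole numbers, where raw counts had been assumed in the plan. Libraries held 23161912 to 25626474 counts in IVP calves.

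Genes were kept by filterByExpr (minimum count 10, minimum total 15) and scaled by TMM. Liver and muscle were compared with edgeR 4.0.16 by the quasi-likelihood test, with the calf as a block, and called at a Benjamini-Hochberg FDR under 0.05. Differences over 2-fold were tested with glmTreat. Errors after ± are standard errors of the log2 fold change. They were taken from the log2 fold change and its test statistic, and can be too small for a gene with few counts in 1 organ. Differences of single calves used log2 CPM with a prior count of 2. Alternatives used limma 3.58.1 and DESeq2 1.42.0 in R 4.3.3, other scalings, no filter, no block and each calf left out. Figures were drawn with matplotlib 3.10.9. A gene at 0 in all libraries of an organ is given as at least so many fold against a floor of 3 counts per library, which covers counting error only.

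Both organs came from the same animals, which is the source of the pairing. The deviations of liver and muscle from their group means correlated between -0.0953 and 0.115 over the 4 calves, above 0.1 in 1 of 4. On simulated counts with 2-fold changes the comparison of the organs recovered 60% of the changed genes tested (114 of 190, among 14491 genes), with 6.56% of calls false, and that of the origins 28.7% (56 of 195, among 15237 genes), with 3.45% false. The simulated libraries shared 1 mean profile, with 200 genes changed and no effect of the calf. In the data 71.9% of genes were called between the organs, so these rates hold for the simulated setting only.

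The deposited table pairs no ID with a symbol. Names of 4181 IDs came from the study's supplementary tables, whose values were not used, and the named genes are therefore a selected part. The members and lists were chosen with earlier results of these data known. Genes were named by rule: in each list up to 4 members with the largest difference and up to 2 against its majority, paired organ forms, the genes with most counts, the largest differences (at least 50 CPM in the higher organ and 10 counts in the lower), those at 0 in 1 organ, the most variable between calves (at least 5 CPM in each organ) and the most nearly equal, the last 4 also among named genes alone. Genes outside the rule are marked in the text, and some that it names are not reported here. No gene lengths of the build were used, so levels are not compared between genes. Promoter motifs, sequences and coordinates were not used here.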

Additional observations from a re-analysis of the deposited data

Results flagged for a closer look

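In 235 sets of 4 values, 1 for each IVP calf, 13 had a calf far from the other 3 by Dixon's 95% limit, where chance gives about 1 in 20 for values not chosen by their spread. Some of these genes were chosen as the most variable between calves, so that rate does not hold for them. The values are differences of liver minus muscle on the log2 scale. Calf 5841 stood apart in 10 of the 13. Its median over the genes of drug and bile acid metabolism was 5.625, against 6.10 to 6.19 in the others. Its difference was 16.36 in APOA2 (others 15.57 to 15.68), 9.018 in APOA1 (7.333 to 7.581), 6.288 in GLS2, the glutaminase of liver (7.597 to 7.802), and 1.875 in ENO1 (0.94 to 1.098). It was 0.03439 in PSMB4 and 0.1614 in PSMB3, core subunits of the proteasome, where the others were all negative. It was -1.021 in MGST3, -5.407 in NR4A2, an activity-induced receptor (others -3.456 to -3.276), and 2.61 in PHIP (0.3921 to 0.6156). Calf 5833 stood apart in the median of lipid metabolism, 1.466 against 2.047 to 2.164, in APOC3, an inhibitor of lipoprotein lipase, at 14.95, and in ACSS2, at -0.4896 against 2.097 to 2.156. APOA2 was at 0 in every muscle and APOC3 at 0, 0, 0 and 0.046 CPM, so their differences depend on the prior count. In liver APOC3 was highest in calf 5841 (3058 CPM, against 2578 CPM in calf 5833, scaled over all 16 libraries).

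Among the 202 named genes looked at, 24 had an organ difference that differed between IVP and MOET calves in the fit over 16 libraries, also without MOET calf 3213 (edgeR's quasi-likelihood test, FDR under 0.05 in both), where 7.51% of all genes did. With a term for age by organ, 14 of the 24 were called and 10 were not (FDR 0.0504 to 0.0578): PSMB6, PSMB3, PSMB2, PSMA4, EIF3G, ENO1, PRKAB2, DLD, ACACA and IL2RA. The values are the IVP difference minus the MOET difference on the log2 scale. The difference was more toward liver in IVP calves by 0.9116 in PSMB6, 0.9564 in PSMB3, 0.8917 in PSMB2, 1.119 in PSMA4, 1.744 in MRPL23, 1.047 in EIF3G, 1.08 in BHLHE40 and 1.02 in ENO1. FGF21 was at 7.258, a value that depends on the prior count. In the other 15 genes the difference was more toward muscle in IVP calves. Of signalling and transcription, the values were -1.327 in IGFBP5, -1.485 in PRKAB2, -1.722 in PDPK1, -1.618 in PPARA and -2.772 in ATF3. Of metabolism and iron, they were -0.7962 in DLD, -0.973 in PDHA1, -1.17 in ACADM, -2.146 in PLIN4, -1.466 in ACACA and -2.851 in TFRC. The others were ATP2A2 at -2.233, CDH5 at -1.004, EDNRB at -1.621 and IL2RA at -1.933. Among the 4 calves of the same parents alone, ACADM, PLIN4, PPARA, MRPL23, PDPK1, BHLHE40, EDNRB, ATF3 and TFRC were called. The rest of the 24 were not, such as ATP2A2 (difference -1.148, FDR = 0.0543, edgeR) and IGFBP5 (FDR = 0.054). The named genes were selected on the difference between the origins.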

How the results depend on the processing

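Of 10418 calls, 8879 were made in the same direction under all 10 alternatives other than library totals, and 0 in the opposite direction under any. With library totals the median of all genes was 0.61, against 0.065, and 69.7% of calls were higher in liver, against 52.6%; 3207 genes were then higher in muscle. Medians that turned were 0.34 in the proteasome core, 0.038 in endothelial markers, 0.14 in the mitochondrial ribosome, 0.089 in clock genes and 0.21 in endothelium. Genes that turned were PSMB3 (0.028), SPCS1 (0.33), CLDN5 (0.038), PPARA (0.28), PPARGC1A (0.28), EIF3M (0.37), EIF3G (0.052), TEF (0.089), PER2 (0.48), IL2RA (0.13) and VIRMA (0.45). With upper quartile factors CDH5 was at -0.042 and MCM3AP at -0.014. Leaving out 1 calf turned genes that had not been called: PSMA4 (-0.14 to 0.31), CDH5 (-0.12 to 0.14), EIF3M (-0.39 to 0.028), PER2 (-0.24 to 0.17), TPM4 (-0.0451 to 0.22) and MIR2887-1 (-0.019 to 1.39).

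Leaving out 1 calf gave 4839 to 5673 genes higher in liver and 4324 to 5185 higher in muscle. Without the calf as a block there were 5652 and 5066, and 3521 genes differed between the origins; the block moved no count by over 1.5 times. The count of genes that differed between the origins ran from 1019 to 4520 with 1 calf left out: 1151 without 3213, 1019 without 3217, 2156 without 3218 and 1564 without 5932. With age by organ it was 713, and among the 4 calves of the shared donor and sire 273, both added after the data were seen. Small counts of lists also moved: without 3208, 2 of the coupling genes were higher in liver (against 4), without 5833, 2 signalling genes were (against 1), and without 3209 or 5841, 0 liver regulators were higher in muscle (against 1). The cause of these changes was not tested. Within the IVP calves, 4 related animals limit what can be said of other calves.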
